A study of Mus musculus with 24 samples.

Results

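The dark onset step is the difference between ZT13, sampled in the dark shortly after lights off, and ZT7, sampled in the light, in RNA-seq of the mouse retinal pigment epithelium (RPE). ZT is zeitgeber time, in hours after lights on. Light and dark below name ZT7 and ZT13. Lighting and time of day changed together across the step, so their parts cannot be told apart. Its members were chosen by time point alone: the 6 libraries labelled ZT13 and the 6 labelled ZT7, 12 of the 24 libraries of the series, with genotype as an additive term, so that each time point had 3 RPE Bmal1 WT libraries and 3 RPE Bmal1 KO libraries. All mice carried an RPE-specific Cre, whose doxycycline-dependent activator is driven by the Vmd2 promoter, together with floxed alleles of Bmal1 (Arntl), on a C57BL/6 background, and were 12 to 16 weeks old on a 12:12 light:dark cycle. By the study's methods, doxycycline chow between postnatal days 60 and 74 set the RPE Bmal1 KO group apart from the WT group on control chow, whereas the labels listed the doxycycline diet for every sample, and the groups here follow the labelled genotype. Deletion was therefore induced in adults and only where this Cre is active, so other cells in a library kept Bmal1 in both groups. RNA came from 1 mouse per library, after removal of the anterior segment and neural retina and release of the RPE from a posterior segment that still held choroid and sclera.

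The circadian clock is a transcriptional feedback loop. BMAL1 and CLOCK (or NPAS2) activate the Per, Cry, Nr1d and D-box factor genes through E-box sequences, PER and CRY proteins then repress that activation, and NR1D and ROR proteins act on Bmal1 itself. The RPE takes up shed photoreceptor outer segments, recycles visual chromophore and passes nutrients between choroid and retina, and its own clock runs beside signals from light, from retinal dopamine and from glucocorticoid hormone, which in mice is highest around the onset of darkness.

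Counts were tested for 20691 autosomal genes of 53700 in the table, with the edgeR quasi-likelihood F-test and Benjamini-Hochberg adjustment over all 20691. Levels below are CPM (counts scaled to a common library size) after TMM scaling, and a difference is the fitted log2 difference, ZT13 minus ZT7, with its standard error (SE). The labels do not give the sex of a mouse or say whether libraries of a group shared a litter or day, so p-values measure the spread between these libraries. By the study's methods the mice were male and female. Xist, which is expressed in females, ran from 17.2 to 9521 CPM at ZT7 and from 19.4 to 8732 CPM at ZT13. The sexes were therefore mixed within both time points, but not evenly in KO. There Xist was 9521, 6294 and 151 CPM at ZT7 and 8732, 22.2 and 19.4 CPM at ZT13. Total counts were 2069527 to 9811251 at ZT7 and 4363712 to 10550207 at ZT13. The shallowest library, RPE Bmal1 WT ZT7 replicate 1, stood apart: 41.7% of its counts were mitochondrial against a median of 12.3% over the 6 ZT7 libraries, and its summed myelin and Schwann cell markers reached 20780 CPM against 3698 to 5732 CPM in the other ZT7 libraries. Arntl, the deleted gene, had 9.32, 24.6 and 31.6 CPM in the WT libraries and 19.7, 25.3 and 35.3 CPM in the KO libraries at ZT7, and 12.2, 19.3 and 61.3 CPM against 18.7, 28.0 and 39.8 CPM at ZT13. Counts per whole gene did not separate the genotypes, and they do not report on the floxed part alone.

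No gene passed the adjusted threshold of 0.05 in edgeR across dark onset (0 of 20691, 0%), and the smallest adjusted p was 0.322. At an unadjusted p under 0.05 the count was 743 genes (3.59%), 381 higher at ZT13 (1.84%) and 362 lower (1.75%). DESeq2 called 16 genes at its adjusted threshold (0.0773%), 13 higher at ZT13 (0.0628%) and 3 lower (0.0145%), and gave no adjusted p for 2881 genes, whereas limma-trend called 0 and had 840 genes at an unadjusted p under 0.05. The 16 genes were Ptgds, Per2, Glul, Zbtb16, Cys1, Fkbp5, Slc6a6, Cry1, Snord32a, Rny1, Rpl32l, Snord13 and Rny3, all higher at ZT13, and Ajuba, Cenpf and 1700061E18Rik, all lower. Every one of the 6 ZT13 libraries lay above every ZT7 library for 38 genes (0.184%) and below for 23 (0.111%), and 53.2% of all genes tested had a difference above 0, with a median of 0.02. Scaling by library size alone moved these to 66.9% and 0.11, so differences near 0 depend on the scaling. Without RPE Bmal1 KO ZT7 replicate 3, edgeR called 44 genes, all higher at ZT13 and 8 of them among the 16. Small noncoding RNAs such as Snord32a, Snora47, Snord15a and Snord104 were among those with the smallest p, beside Ptgds and Rpl32l. That library had 0.352% of its counts on small noncoding RNA genes, the highest share at ZT7. The count at an unadjusted p under 0.05 was 1504 without that library, 1176 without RPE Bmal1 KO ZT13 replicate 1 and 1198 with all 24 libraries in the fit. Since the edgeR threshold was not passed, the genes below are described by their values.

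Clock genes were among those that separated the time points most clearly. Per2, a repressor of the clock loop (ENSMUSG00000055866, chr1:91415982-91459324, minus strand, mm10), had 47.0, 62.4 and 89.6 CPM at ZT7 (lowest, median, highest of 6) and 109, 149 and 184 CPM at ZT13. The groups did not overlap, and the mean level at ZT13 was 2.19 times that at ZT7. Its difference of 1.13 (SE 0.19) had the smallest p of all genes tested (edgeR unadjusted p = 2.9e-05, adjusted p = 0.322), and DESeq2 called it (adjusted p = 3.8e-05). Over the alternatives of processing the adjusted p of Per2 ran from 3.8e-05 to 1, while its difference stayed between 1.02 and 1.27. In RPE Bmal1 WT the difference was 1.18 (SE 0.28) and with RPE Bmal1 KO 1.08 (SE 0.27), and the test of their difference gave an edgeR unadjusted p of 0.81.

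Cry1, the other repressor of the loop that separated the groups (chr10:85131700-85185064, minus strand), ran from 5.93 through 10.1 to 13.9 CPM in the light and from 14.9 through 18.4 to 22.3 CPM at ZT13. All 6 dark libraries were above all 6 light libraries, although the closest pair, RPE Bmal1 KO ZT7 replicate 3 and RPE Bmal1 KO ZT13 replicate 1, lay only between 13.9 and 14.9 CPM. The difference was 0.88 (SE 0.19, edgeR unadjusted p = 0.00036). Cys1, which encodes the ciliary protein cystin and stood in the clock output list, ran from 18.4 to 29.6 CPM in the light and from 35.4 to 50.7 CPM in the dark, again without overlap, with a difference of 0.83 (SE 0.16, edgeR unadjusted p = 0.00014). Wee1, a kinase that restrains entry into mitosis and carries E-boxes used by the clock, had 16.3, 17.8 and 27.1 CPM at ZT7 and 21.3, 30.3 and 36.1 CPM at ZT13. Its groups overlapped because RPE Bmal1 WT ZT7 replicate 1 was high, at 27.1 CPM where the other ZT7 libraries had at most 19.7 CPM.

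Lower values at ZT13 were seen for Nr1d1 and Npas2. Nr1d1 encodes REV-ERB alpha, a repressor of Bmal1, and ran from 222 through 406 to 603 CPM in the light and from 184 through 278 to 323 CPM at ZT13, a difference of -0.64 (SE 0.23, edgeR unadjusted p = 0.014). Only RPE Bmal1 WT ZT7 replicate 1, at 222 CPM, lay inside the ZT13 range. Nr1d1 overlaps Thra on the opposite strand, and whether the counting used strand was not given, so reads shared with Thra cannot be told apart. Npas2, a partner of BMAL1, ran from 10.0 to 15.6 CPM in the light and from 6.68 to 13.2 CPM in the dark (difference -0.55, SE 0.20, edgeR unadjusted p = 0.015). Its WT libraries did not overlap, at 7.38 CPM or less in the dark, while RPE Bmal1 KO ZT13 replicate 1 had 13.2 CPM.

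Other clock genes with a small p had higher medians at ZT13 with overlapping groups. Noct, which encodes nocturnin, had a ZT7 median of 19.8 CPM and a ZT13 median of 25.9 CPM. For Usp2, a deubiquitinase, the medians were 48.0 and 91.0 CPM, for Tspan4, a tetraspanin, 14.1 and 18.7 CPM, and for Bhlhe41, a repressor of E-box genes, 117 and 140 CPM. Rorb reached 205 CPM in the light and 430 CPM in the dark, in the library with the most rod marker RNA at each time point. Its difference of 1.20 (SE 0.49) was 0.37 with the rod level as a covariate. The rod level is the mean log2 CPM of the rod markers tested. Usp2, Tspan4 and Bhlhe41 each overlap an antisense gene.

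**Figure D1:**
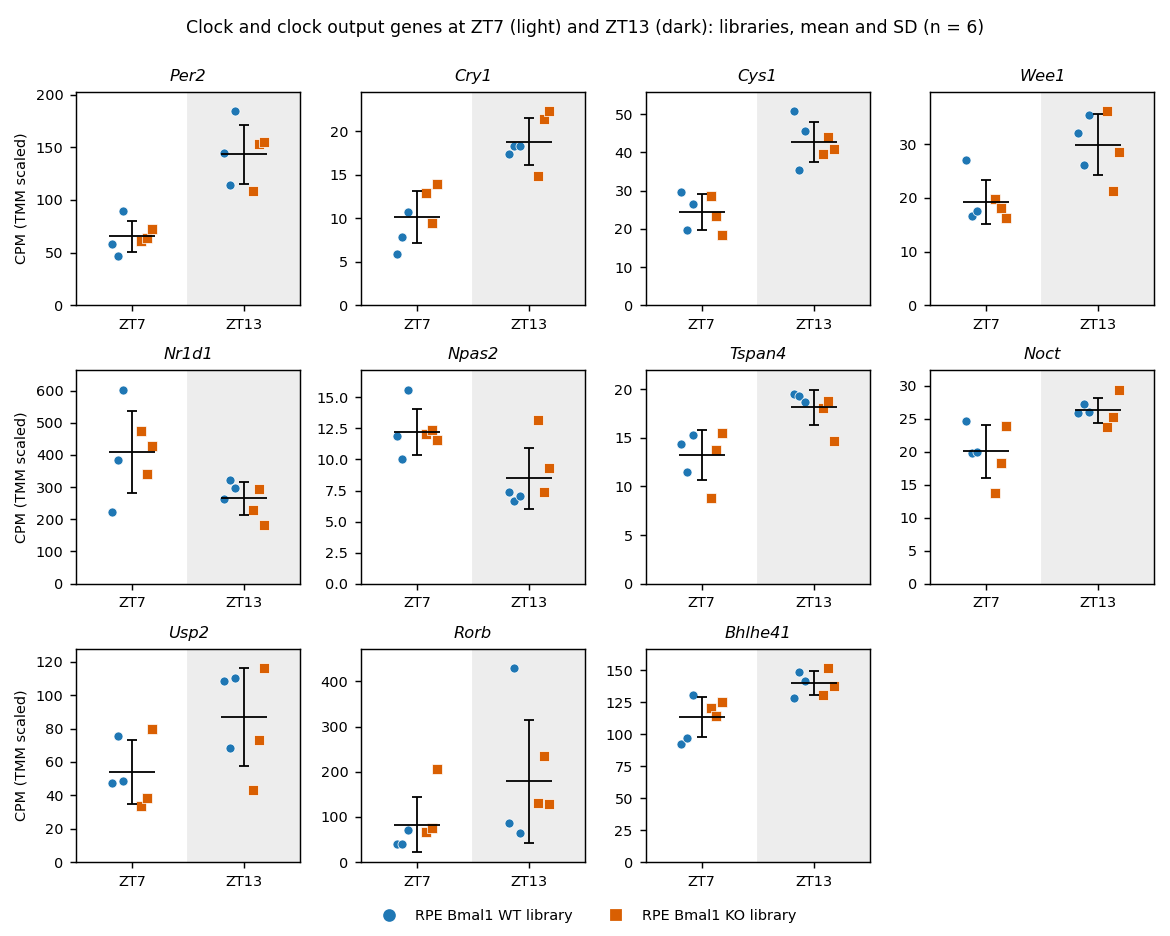
CPM (vertical axes, linear from 0) of 11 clock and clock output genes among those with the smallest p, for 3 RPE Bmal1 WT (circles) and 3 RPE Bmal1 KO (squares) libraries at ZT7 and ZT13, with the mean and SD of the 6 libraries. The ranges of Per2, Cry1 and Cys1 do not overlap, Nr1d1 and Npas2 are lower at ZT13 in most libraries, and the points of both genotypes lie among each other.

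Of the 20 core clock genes tested, 15 had a positive difference. An unadjusted p under 0.05 was found for 5 positive and 2 negative ones, against 1.84% and 1.75% of all genes. The median difference of the 20 was 0.23, against 0.02 over all genes, with 0.35 in WT and 0.07 in KO. Of the 14 clock output genes, 12 were positive, 5 at an unadjusted p under 0.05. Their median was 0.27, with 0.36 in WT and 0.23 in KO. These lists and those below were chosen with earlier results of these data known, so their counts are no independent test. The D-box factor genes and the other Per genes had overlapping groups. Dbp had 57.5, 83.4 and 127 CPM at ZT7 and 52.2, 85.3 and 174 CPM at ZT13. Tef had a median of 305 CPM at ZT7 and 377 CPM at ZT13, with an edgeR unadjusted p of 0.052. Per1 medians were 99.2 and 126 CPM, Per3 medians 271 and 292 CPM, and Nr1d2 medians 168 and 181 CPM, none at an unadjusted p under 0.05. Arntl had a difference of 0.26 (SE 0.37), or -0.38 with the rod level as a covariate. With all 24 libraries scaled together its mean was 24.9 CPM at ZT7 and 30.6 CPM at ZT13, against 72.2 CPM at ZT1 and 55.2 CPM at ZT19, so the step joined its lower time points. Of the remaining clock genes, Cry2 had a difference of 0.29 (SE 0.20), Hlf 0.26 (SE 0.25), Fbxl21 -0.53 (SE 0.26) and Pdk4 -0.76 (SE 0.40), also with none at an unadjusted p under 0.05.

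Placed in the whole day, with all 24 libraries scaled together, the step held the highest mean of Per2 and lay before the trough of Nr1d1. Mean Per2 levels were 38.3 ± 14.8 CPM at ZT1, 67.3 ± 14.4 at ZT7, 146 ± 27.8 at ZT13 and 61.5 ± 9.57 at ZT19 (SD, n = 6). Nr1d1 had 153 ± 66.2, 420 ± 128, 270 ± 53.9 and 63.1 ± 22.6 CPM. Dbp had 27.1 ± 11.4, 90.3 ± 27.2, 98.8 ± 43.9 and 20.7 ± 7.79 CPM, so ZT7 and ZT13 were its high time points and differed by less than their spread. Across the following step, ZT19 against ZT13, the same fit called 7 genes by adjusted p (Nr1d1, Per2, Dbp, Tef, Nr1d2, Cyp2a5 and Chil1) and had 419 genes at an unadjusted p under 0.05. The steps ZT1 against ZT19 and ZT7 against ZT1 had 0 adjusted calls each, with 627 and 813 genes at an unadjusted p under 0.05 and 5 and 22 genes called by DESeq2. The steps share libraries and were compared by their counts only.

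No gene passed edgeR, so promoter sequence was looked up for genes chosen after their values were seen: Per2, Cry1, Fkbp5, Zbtb16, Cys1, Ptgds, Glul, Slc6a6, Cenpf and Ajuba, which DESeq2 called, and Wee1, Nr1d1 and Tef, which it did not. No promoter was read for Per2, Zbtb16, Slc6a6 and Wee1. The 4 printed below are those of the called genes with a match to an E-box (CACGTG), a D-box (TTATGTAA, TTACATAA or TTACGTAA), a cAMP response element (TGACGTCA) or a ROR element (TAGGTCA), on either strand. Each is the 250 bases before a RefSeq transcription start in GRCm38.p6, with the match in capitals. Cry1 (chr10:85185055-85185304, minus strand) and Fkbp5 (chr17:28486150-28486399, minus strand) held an E-box that began 60 and 169 bases before the start. Ptgds (chr2:25469750-25469999, minus strand) held a D-box at 141 bases, and Glul (chr1:153899679-153899928, plus strand) a ROR element at 58 bases.
Cry1: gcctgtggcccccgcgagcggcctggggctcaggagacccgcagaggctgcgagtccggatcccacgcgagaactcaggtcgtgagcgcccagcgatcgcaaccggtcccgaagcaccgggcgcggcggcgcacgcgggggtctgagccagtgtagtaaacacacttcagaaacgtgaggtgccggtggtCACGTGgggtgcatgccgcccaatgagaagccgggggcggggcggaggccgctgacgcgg
Fkbp5: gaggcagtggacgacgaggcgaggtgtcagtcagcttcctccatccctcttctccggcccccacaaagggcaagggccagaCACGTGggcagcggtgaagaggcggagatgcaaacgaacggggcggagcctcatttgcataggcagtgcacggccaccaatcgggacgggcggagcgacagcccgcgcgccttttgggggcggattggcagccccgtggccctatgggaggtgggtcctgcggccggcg
Ptgds: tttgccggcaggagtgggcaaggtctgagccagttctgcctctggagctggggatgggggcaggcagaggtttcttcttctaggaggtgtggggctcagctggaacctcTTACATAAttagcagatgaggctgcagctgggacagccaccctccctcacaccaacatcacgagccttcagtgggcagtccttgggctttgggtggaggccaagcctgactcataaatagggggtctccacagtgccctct
Glul: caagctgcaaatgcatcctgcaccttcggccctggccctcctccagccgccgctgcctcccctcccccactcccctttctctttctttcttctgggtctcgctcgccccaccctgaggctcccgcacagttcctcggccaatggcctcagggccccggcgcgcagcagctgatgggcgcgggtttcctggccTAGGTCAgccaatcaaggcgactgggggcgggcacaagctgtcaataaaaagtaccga
Among 31396 autosomal promoters of the same length, 6.02% held the E-box, 0.933% the D-box, 2.25% the ROR element and 1.58% the cAMP response element. Both promoters listed for Tef held an E-box, at 127 and 138 bases before the start. The promoters of Cys1, Cenpf, Ajuba and Nr1d1 held no match to these letters in this window, and a match is a description of the sequence only.

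Ptgds had the largest difference among the protein-coding genes that DESeq2 called. It encodes lipocalin-type prostaglandin D synthase, a secreted enzyme and retinoid carrier (ENSMUSG00000015090, chr2:25466709-25470046, minus strand), and ran from 27.1 through 39.4 to 128 CPM in the light and from 157 through 187 to 257 CPM at ZT13. All dark libraries were higher than all light libraries, and the highest light library was RPE Bmal1 KO ZT7 replicate 3, which also had the most rod marker RNA at ZT7. The difference was 1.91 (SE 0.32, edgeR unadjusted p = 3.1e-05, adjusted p = 0.322), with 2.33 (SE 0.44) in WT and 1.497 (SE 0.42) in KO. Its mean in all 24 libraries was 221 ± 108 CPM at ZT1, 55.3 ± 38.1 at ZT7, 201 ± 36.5 at ZT13 and 175 ± 52.4 at ZT19 (SD, n = 6), so that ZT7 was the low time point. With the rod level as a covariate the difference was 1.76, and without RPE Bmal1 KO ZT7 replicate 3 it was 2.32 and passed the threshold (edgeR adjusted p = 0.00024). Over its 29 alternatives the adjusted p ran from 3.6e-05 to 1.

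Zbtb16, Fkbp5 and Hif3a, which are known to respond to glucocorticoid hormone, had higher levels in the dark. Zbtb16, a zinc finger transcription factor (chr9:48654297-48836222, minus strand), had 26.6, 34.9 and 49.1 CPM at ZT7 and 52.2, 94.4 and 125 CPM at ZT13, with no overlap and a difference of 1.38 (SE 0.25, edgeR unadjusted p = 7.9e-05). Fkbp5, a co-chaperone that dampens the glucocorticoid receptor (chr17:28399094-28517527, minus strand), had 17.6, 19.6 and 32.2 CPM at ZT7 and 29.3, 48.3 and 58.4 CPM at ZT13 (difference 1.12, SE 0.21, edgeR unadjusted p = 0.00011). Its only overlap came from RPE Bmal1 WT ZT7 replicate 1, and the other 5 ZT7 libraries had at most 22.0 CPM. Hif3a, a hypoxia-inducible factor subunit, ran from 6.74 to 16.9 CPM in the light and from 17.3 to 30.9 CPM in the dark, with no overlap (difference 1.02, SE 0.23, edgeR unadjusted p = 0.00064). These 3 genes were higher in both genotypes, with Fkbp5 at 0.89 in WT and 1.36 in KO.

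Of 24 glucocorticoid responsive genes tested, 20 had a positive difference, against 53.2% of all genes. Of the 20, 6 had an unadjusted p under 0.05, and 1 of the 4 negative genes passed it, against 1.84% and 1.75% of all genes. The median was 0.27, with 0.09 in WT and 0.41 in KO. Beside the 3 above, the 6 held Fam107a (median 30.3 CPM at ZT7 and 39.7 at ZT13), Sgk1, a kinase that controls ion transport (162 and 206 CPM), and the metallothionein Mt2 (0.73 and 4.06 CPM). The negative gene was Angptl4, an inhibitor of lipoprotein lipase, with medians of 8.93 and 5.30 CPM. Common members of the response were close to 0: Klf9 had a difference of 0.13 (SE 0.18), Txnip 0.18, Dusp1 0.22 and Nfkbia -0.08. The receptor gene itself, Nr3c1, had a difference of 0.01.

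Slc6a6, Glul, Lamp1 and Npc1, genes of solute handling and of the lysosome, had higher levels in every dark library than in every light library. Slc6a6, the taurine transporter, which supplies the outer retina with taurine (chr6:91684053-91759066, plus strand), had 582, 744 and 1012 CPM at ZT7 and 1082, 1233 and 1567 CPM at ZT13. The mean was 1.66 times higher in the dark, with a difference of 0.73 (SE 0.18, edgeR unadjusted p = 0.0014) that was 0.74 in WT and 0.71 in KO. Glul, glutamine synthetase, which detoxifies ammonia and glutamate and is abundant in Muller glia (chr1:153899944-153909723, plus strand), had 506, 567 and 825 CPM at ZT7 and 841, 981 and 1099 CPM at ZT13. The groups nearly met, between RPE Bmal1 KO ZT7 replicate 3 at 825 CPM and RPE Bmal1 KO ZT13 replicate 1 at 841 CPM, and the difference was 0.73 (SE 0.17, edgeR unadjusted p = 0.00081). Slc6a6 and Glul overlap the antisense genes Gm44981 and Teddm2. Of the 10 Muller glia and astrocyte markers tested, Glul among them, 4 had a positive and 6 a negative difference, with a median of -0.10 (0.02 with library size alone). Crb1, a polarity protein of Muller glia and photoreceptors, had a difference of 0.93 (SE 0.50), which was 0.07 with the rod level as a covariate, where that of Glul was 0.64.

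Lamp1, a major protein of the lysosomal membrane, ran from 58.4 to 97.2 CPM in the light and from 98.5 to 118 CPM in the dark (difference 0.42, SE 0.14, edgeR unadjusted p = 0.0088). Npc1, which exports cholesterol from lysosomes, ran from 48.3 to 74.6 CPM in the light and from 76.0 to 91.5 CPM in the dark (difference 0.39, SE 0.13, edgeR unadjusted p = 0.011). Both separated the groups without overlap, DESeq2 called neither, and each overlaps genes on the opposite strand. Of the 23 phagosome and lysosome genes tested, 16 were positive, against 53.2% of all genes, with a median of 0.09. Only Lamp1 and Npc1 had an unadjusted p under 0.05 (8.7%, against 1.84% of all genes higher at that threshold). Genes of outer segment binding and engulfment had differences near 0: 13 of 20 were positive, 0 had an unadjusted p under 0.05, and the smallest p belonged to the receptor tyrosine kinase gene Axl, with medians of 81.1 CPM at ZT7 and 99.8 CPM at ZT13.

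**Figure D2:**
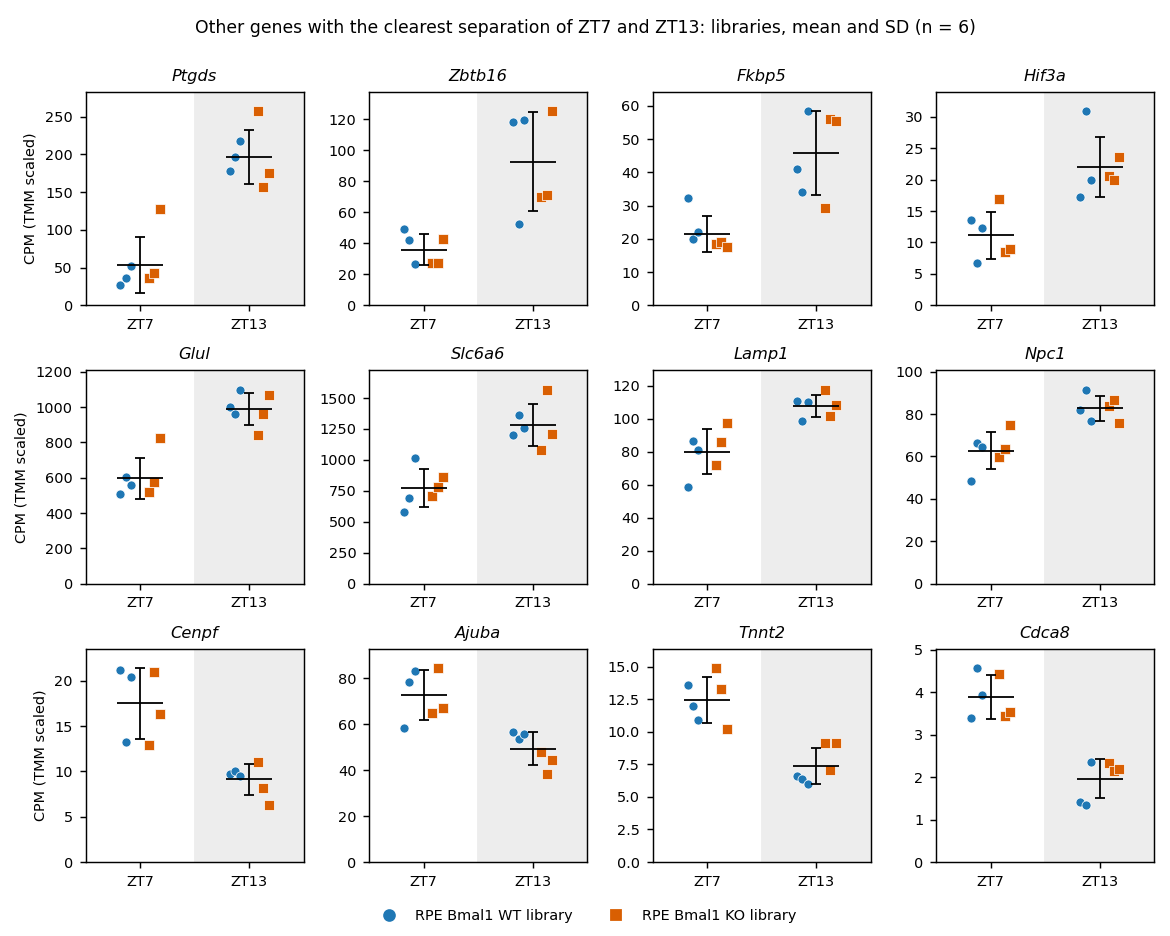
CPM (vertical axes, linear from 0) of 12 genes outside the clock lists at ZT7 and ZT13, drawn as circles for RPE Bmal1 WT and squares for RPE Bmal1 KO libraries, with the mean and SD of 6 libraries. Ptgds, Zbtb16, Hif3a, Glul, Slc6a6, Lamp1 and Npc1 have every ZT13 library above every ZT7 library, Fkbp5 overlaps through RPE Bmal1 WT ZT7 replicate 1 alone, and Cenpf, Ajuba, Tnnt2 and Cdca8 have every ZT13 library below.

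Lists of the RPE's own functions had medians near 0, from 0.00 for junction genes to 0.14 for transport genes, and held single genes with larger differences, Rpe65, Slc6a6 and Cldn10 among them. Rpe65, the isomerase of the visual cycle, had 36.4, 89.8 and 143 CPM at ZT7 and 89.4, 146 and 282 CPM at ZT13, a difference of 0.96 (SE 0.32, edgeR unadjusted p = 0.010) with overlapping groups. It was the only 1 of 18 RPE markers at an unadjusted p under 0.05 (5.56%, against 3.59% of all genes). Of those 18, 12 were positive, with a median of 0.06, and their summed level was 1972 to 4850 CPM in the light and 3047 to 4826 CPM in the dark. Visual cycle genes were positive in 8 of 11, with a median of 0.06, and after Rpe65 the smallest p belonged to Ttr, transthyretin, with a difference of 0.55 (SE 0.35), or 0.28 with the rod level as a covariate. RPE transport genes were positive in 13 of 20, and beside Slc6a6 none had an unadjusted p under 0.05. Carbonic anhydrase 14 (Car14) was next, with medians of 49.6 and 65.1 CPM. Among 15 junction genes, 9 were negative, and Cldn10, a claudin, separated the groups at low levels of 1.74 to 3.39 CPM and 3.46 to 5.94 CPM (difference 0.82, SE 0.26, edgeR unadjusted p = 0.0063). Cdh2, N-cadherin, had a difference of 0.47 (SE 0.23), or 0.22 with the rod level as a covariate, and Cdh3, P-cadherin, the lowest difference of the list, -0.75 (SE 0.44). The melanosome list, with 13 genes tested, held 1 gene in each direction at an unadjusted p under 0.05, against 1.84% and 1.75% of all genes. They were Mlana, with medians of 22.0 and 28.0 CPM, and Rab38, with 16.1 and 12.1 CPM.

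Most heat shock genes, which encode chaperones, had a positive difference. Of 17 heat shock genes, 13 were positive, against 53.2% of all genes. An unadjusted p under 0.05 was found for 5, all positive, against 1.84% of all genes. The median was 0.11, with 0.37 in WT and 0.16 in KO. Hsph1, a nucleotide exchange factor for HSP70, ran from 14.0 to 22.9 CPM in the light and from 21.4 to 31.0 CPM in the dark (difference 0.50, SE 0.17, edgeR unadjusted p = 0.0095). Hspe1, the mitochondrial co-chaperonin, had medians of 5.84 and 11.1 CPM and overlaps Hspd1 on the opposite strand. Hsp90aa1 had medians of 15.5 and 22.5 CPM, Hspa8 of 41.9 and 59.1 CPM and Hspa4l of 45.3 and 65.1 CPM. The groups overlapped for all 5 genes. The cold inducible gene Cirbp, the only member of its list tested, had medians of 57.3 and 65.7 CPM.

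Immediate early genes, which mark recent activation of cells, were split, with 11 of 28 positive and a median of -0.05 that turned to 0.03 with library size alone. Npas4 (medians 1.72 and 3.62 CPM) and Nr4a3 (20.5 and 35.6 CPM) were among the 3 positive genes at an unadjusted p under 0.05. Myc (16.4 and 10.7 CPM) and Nr4a2 (21.0 and 16.1 CPM) were the 2 negative ones, against 1.84% and 1.75% of all genes. Fos had a difference of -0.17. Cholesterol synthesis and uptake genes were negative in 16 of 20, by small amounts: the median was -0.14, the range -0.38 to 0.07, and 0 had an unadjusted p under 0.05. The smallest p belonged to Hsd17b7 (difference -0.37, SE 0.24) and Fdps, farnesyl diphosphate synthase (-0.38, SE 0.25). Fatty acid synthesis genes were positive in 14 of 15, with a median of 0.17. Of the positive ones, 2 had an unadjusted p under 0.05, against 1.84% of all genes. Pnpla3, a lipase and transacylase of lipid droplets, ran from 0.87 to 5.24 CPM in the light and from 2.76 to 11.5 CPM in the dark, and Acly, which makes cytosolic acetyl-CoA, had medians of 85.1 and 101 CPM. Glycolysis genes were positive in 16 of 19, with a median of 0.29, led by the enolase gene Eno1 with medians of 25.8 and 37.6 CPM. The difference of Eno1 was 0.91, and 0.37 with the rod level as a covariate. Pkm, pyruvate kinase, had a difference of 0.59 (SE 0.29), which was 0.33 with that covariate and 0.90 without RPE Bmal1 KO ZT7 replicate 3.

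Dopamine and cAMP genes were positive in 17 of 21, with a median of 0.13. Drd4, the D4 dopamine receptor of photoreceptors, had 3.39, 8.06 and 28.8 CPM at ZT7 and 8.70, 30.1 and 86.0 CPM at ZT13, and its highest library at ZT7 and its 2 highest at ZT13 were those with the most rod marker RNA. Its difference was 1.75 (SE 0.62, edgeR unadjusted p = 0.013). With the rod level as a covariate it was 0.61 (edgeR unadjusted p = 0.0091). Drd1 had medians of 3.37 and 7.67 CPM, and its difference of 1.18 was 0.52 with the rod level as a covariate and 0.57 without RPE Bmal1 WT ZT13 replicate 2. Of 10 thyroid hormone genes, 7 were negative (median -0.10, and 0.02 with library size alone), with Slco1c1, a thyroxine transporter, at medians of 20.4 and 14.99 CPM (edgeR unadjusted p = 0.016), and the receptor gene Thrb at a difference of 0.34 (SE 0.18), or 0.13 with the rod level as a covariate. In the stress list the transcription factor Ddit3 had medians of 10.5 and 16.6 CPM and Asns, asparagine synthetase, 7.03 and 3.91 CPM. The NRF2 and metallothionein list had 7 of 15 positive (median -0.02, and 0.11 with library size alone). Of these, Mt2 and the glutathione transferase gene Gsta4 had an unadjusted p under 0.05, against 1.84% of all genes. Angiogenic and Bruch membrane genes were negative in 9 of 17 (median -0.05, and 0.05 with library size alone), with Mmp14, a membrane protease, at medians of 119 and 89.4 CPM.

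**Figure D3:**
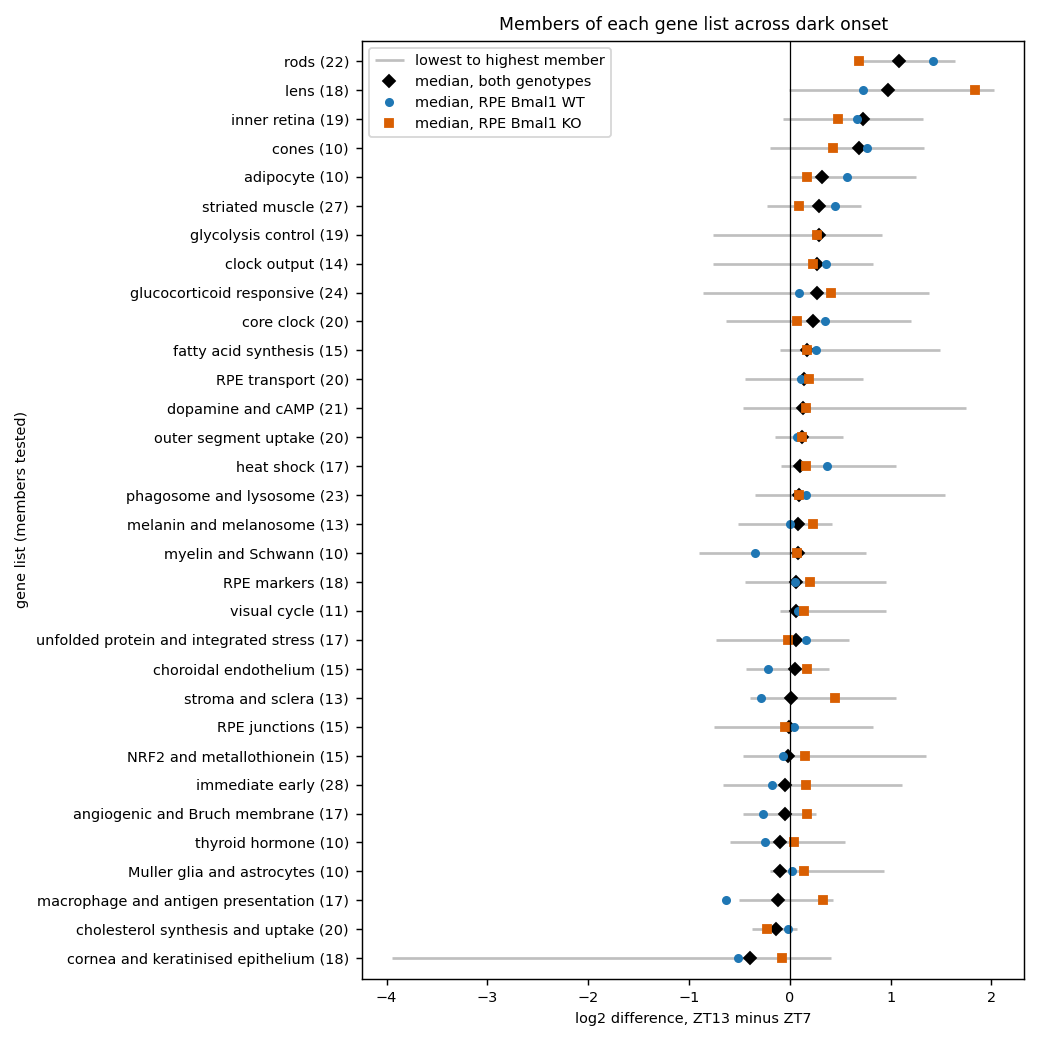
Log2 difference, ZT13 minus ZT7 (horizontal axis), for every gene list with at least 5 members tested: the grey line spans the lowest to the highest member, the diamond is the median over both genotypes, and the circle and square are the medians in the WT and the KO libraries. Lists of rods, lens, inner retina and cones have the highest medians, followed by adipocyte (0.32), striated muscle (0.29) and glycolysis (0.29) lists. The clock and glucocorticoid lists sit between 0.23 and 0.27, and RPE and outer segment uptake lists sit near 0.

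Among genes with lower values in the dark, Cenpf was the clearest. It encodes a kinetochore protein of dividing cells and had 12.9, 18.4 and 21.2 CPM at ZT7 and 6.28, 9.64 and 11.04 CPM at ZT13, with no overlap (difference -0.95, SE 0.20, edgeR unadjusted p = 0.00025). Ajuba, a LIM domain protein of cell junctions and mitosis, ran from 58.4 to 84.4 CPM in the light and from 38.3 to 56.5 CPM in the dark (difference -0.59, SE 0.14, edgeR unadjusted p = 0.0013). Cdca8, a subunit of the chromosomal passenger complex, and Mki67, a marker of cycling cells, were named after their values were seen. Cdca8 had 3.39 to 4.57 CPM in the light and 1.33 to 2.36 CPM in the dark. Medians of Mki67 were 95.1 and 53.3 CPM. No list of cell cycle genes was tested, and the replication clamp gene Pcna, given at the end, was opposite in sign. Tnnt2, cardiac troponin T, ran from 10.2 to 14.9 CPM in the light and from 5.95 to 9.13 CPM in the dark and separated the groups (difference -0.75, SE 0.17, edgeR unadjusted p = 0.00067). The remaining genes with the smallest p were known here by identifier only: BC043934, with medians of 5.55 and 2.59 CPM, 1700061E18Rik, with 4.42 and 1.51 CPM, and Gm47144, with 2.29 and 0.26 CPM.

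RNA of other ocular cells was present in every library, and its amount differed between libraries and time points. Summed CPM of rod markers ran from 837 through a median of 1952 to 7990 at ZT7 and from 2259 through 4238 to 15420 at ZT13. All 22 rod genes tested had a positive difference, with a median of 1.09 (1.42 in WT, 0.69 in KO), yet only Pdc, phosducin, had an unadjusted p under 0.05, and the libraries of each group spread widely. Cone genes were positive in 9 of 10 and inner retina genes in 18 of 19, with medians of 0.68 and 0.72 and 0 at an unadjusted p under 0.05. The smallest p in these lists belonged to Kcnv2 (difference 1.16, SE 0.58) and the short-wave opsin gene Opn1sw (1.33, SE 0.68) among cone genes, and to the synaptic genes Syt1 (1.32, SE 0.67) and Snap25 (1.14, SE 0.59). With the rod level as a covariate these 4 differences were 0.08, 0.17, 0.13 and 0.03, and that of Pdc was 0.42 in place of 1.40. Pdc is itself among the rod genes averaged in the covariate, so a smaller difference of Pdc was built into that fit. In these bulk samples more cells of a type and more RNA per cell cannot be told apart. With the rod level as a covariate, 540 genes had an unadjusted p under 0.05 in place of 743, and 0 passed the adjusted threshold in edgeR in either fit.

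Corneal and lens transcripts were also present, although the anterior segment had been removed. Krt5 ran from 1905 to 5909 CPM at ZT7 and from 3026 to 5895 CPM at ZT13, and Krt12, the keratin of corneal epithelium, from 393 to 3461 CPM and from 2435 to 3987 CPM. Summed lens markers had medians of 454 and 569 CPM, with 3752 CPM in RPE Bmal1 WT ZT7 replicate 1 and 7242 CPM in RPE Bmal1 WT ZT13 replicate 1, and 17 of 18 lens genes were positive. The cornea and keratinised epithelium list was negative in 13 of 18, with 4 of these at an unadjusted p under 0.05, against 1.75% of all genes. Krt16 and Sprr1a, genes of stressed keratinocytes, had 367 and 220 CPM in RPE Bmal1 WT ZT7 replicate 1 and at most 18.9 and 14.8 CPM in the other 11 libraries. Striated muscle genes were positive in 24 of 27, with summed levels of 11460 to 51470 CPM in the light and 9769 to 50660 CPM in the dark, and Myh3, embryonic myosin heavy chain, had a difference of 0.63 (SE 0.27). Of 10 adipocyte genes 10 were positive, with a median of 0.32, and 0 of them had an unadjusted p under 0.05. Lists of choroidal endothelium (9 of 15 positive), macrophages (5 of 17), stroma and sclera (7 of 13), and myelin (6 of 10) had medians between -0.12 and 0.08, those of macrophages and of stroma and sclera changing sign with another scaling, and both hemoglobin genes tested were positive.

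**Figure D4:**
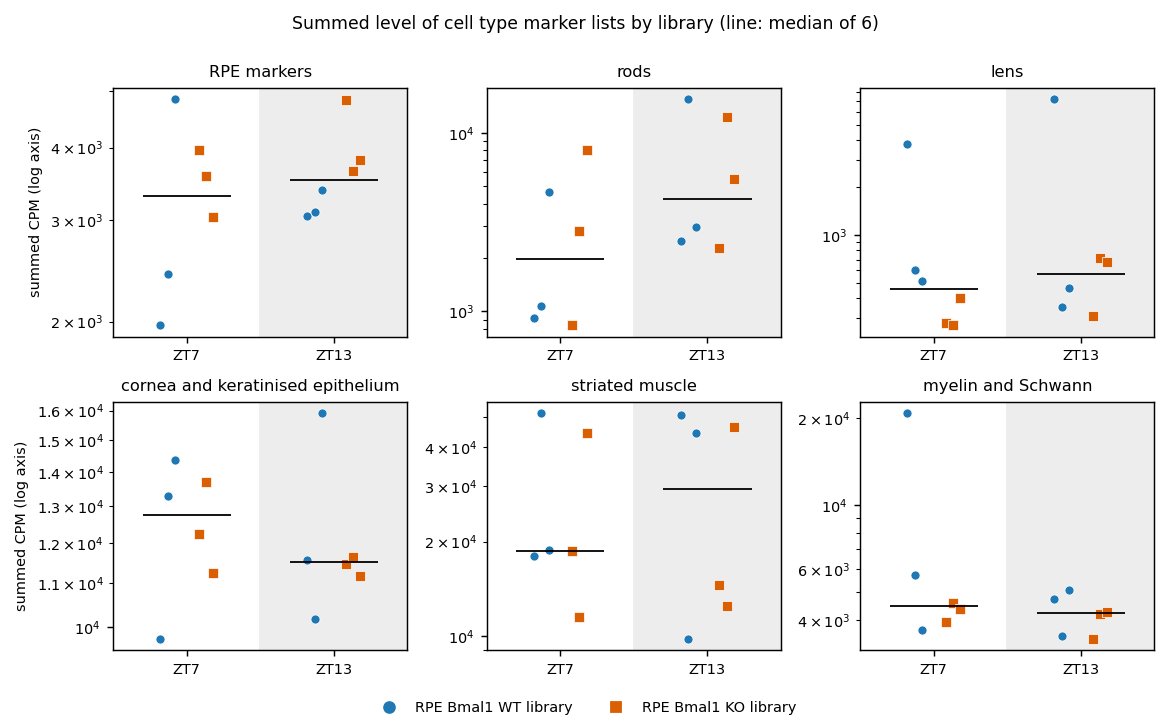
Summed CPM of 6 marker lists (vertical axes, logarithmic) in each library at ZT7 and ZT13, circles for RPE Bmal1 WT, squares for RPE Bmal1 KO, and a line at the median of 6 libraries. RPE markers overlap between the time points, rod markers have a median of 1952 CPM at ZT7 and 4238 CPM at ZT13, and RPE Bmal1 WT ZT7 replicate 1 is the highest myelin library at 20780 CPM.

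Within each genotype the step gave 0 adjusted calls in edgeR, or 10 in WT and 2 in KO without RPE Bmal1 KO ZT7 replicate 3. Those in KO were Gm26397 and Gm6767, and the 10 in WT held these with Snord32a, Snord13, Snora47 and Snord15a among others. In RPE Bmal1 WT, 948 genes had an unadjusted p under 0.05 (4.58%), 457 higher at ZT13 (2.21%) and 491 lower (2.37%), and DESeq2 called 4 (0.0193%), Ptgds, Snord13 and Snord32a higher (0.0145%) and Fhad1 lower (0.00483%). For RPE Bmal1 KO the count was 231 genes (1.12%), 120 higher (0.58%) and 111 lower (0.536%), and DESeq2 called 0. Single libraries moved these counts: the WT count was 572 and 1883 without RPE Bmal1 WT ZT7 replicates 1 and 2, and 534 and 1669 without ZT13 replicates 2 and 3, and it was 1758 with Xist as a covariate. The KO count was 126, 146 and 729 without RPE Bmal1 KO ZT7 replicates 1, 2 and 3, and 605, 120 and 150 without ZT13 replicates 1, 2 and 3. Same-numbered KO libraries deviated together (correlations 0.64, 0.28 and 0.43), but so did ZT7 replicate 3 and ZT13 replicate 2 (0.38). In a fit of the 6 KO libraries with the replicate number as a block, chosen after seeing the data, the KO count was 1430. It was 239 without the block, with 0 adjusted calls in edgeR in either fit and a smallest adjusted p of 0.055 with the block. All 3 dark libraries were above all 3 light libraries for 929 genes in WT (4.49%) and 635 in KO (3.07%), and below for 835 (4.04%) and 553 (2.67%). These counts do not show that the genotypes differed. In the test of the difference itself, KO step minus WT step, edgeR called 0 genes, 302 had an unadjusted p under 0.05 (1.46%), 183 with the higher step in KO (0.884%) and 119 with the lower (0.575%), and DESeq2 called 0. The count of 302 became 1000 with Xist as a covariate, 999 and 479 without RPE Bmal1 WT ZT7 replicates 2 and 3, 632 without RPE Bmal1 WT ZT13 replicate 3, 735 without RPE Bmal1 KO ZT13 replicate 1 and 532 with all 24 libraries in the fit. None of the 34 clock genes tested was among the 302. The smallest p among genes of at least 1 CPM belonged to Gm15742, Serpinf1 and Cercam. Serpinf1 encodes pigment epithelium derived factor, secreted by the RPE, and had 33.1, 49.7 and 66.1 CPM in the WT libraries at ZT7 and 26.9, 33.6 and 36.3 CPM at ZT13, a difference of -0.60 (SE 0.26). In KO it had 22.9, 24.3 and 34.5 CPM at ZT7 and 42.3, 45.0 and 47.0 CPM at ZT13, a difference of 0.71 (SE 0.26), and the edgeR unadjusted p of the contrast was 0.0036. Cercam, a cell adhesion protein, had the same arrangement, with -0.64 in WT and 0.52 in KO. The mix of sexes differed between the KO time points, and its part in the contrast of Serpinf1 and Cercam was not tested.

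Snord13, Snord32a, Rny1 and Rny3, which DESeq2 called, are small noncoding RNAs. Rny1, a Y RNA that binds the Ro protein, had 1.27, 19.7 and 643 CPM at ZT7 and 341, 960 and 5560 CPM at ZT13. Its groups overlapped through RPE Bmal1 KO ZT7 replicate 3, and the other 5 ZT7 libraries had at most 32.6 CPM. Rny3 had 1.03, 8.997 and 256 CPM and 146, 404 and 1503 CPM, with the same library on top at ZT7. Snord13, a small nucleolar RNA, was at 0 counts in RPE Bmal1 WT ZT7 replicates 1 and 2 and had 3.49 to 13.4 CPM at ZT13. Of 162 small noncoding RNA genes tested, 94 were positive, against 53.2% of all genes. An unadjusted p under 0.05 was found for 35 positive and 3 negative ones, against 1.84% and 1.75% of all genes. The small noncoding RNA share of all counts ran from 0.0931% to 0.352% at ZT7 and from 0.244% to 0.943% at ZT13. Outside the step it was 0.244% to 0.556% at ZT1 and 0.191% to 0.472% at ZT19, so the lowest values of the series lay at ZT7. Without the Rny, Rn7sk and Rn7sl genes the ranges overlapped, at 0.0911% to 0.255% at ZT7, with RPE Bmal1 KO ZT7 replicate 3 the highest, and 0.131% to 0.204% at ZT13. By the share with all small RNA genes, all 3 WT libraries at ZT7 were below all other WT libraries. RPE Bmal1 KO ZT7 replicate 3 lay among the ZT13 libraries by that share. Rpl32l, a processed pseudogene, had the same arrangement, with 1.52 to 3.39 CPM in 5 ZT7 libraries, 11.6 CPM in RPE Bmal1 KO ZT7 replicate 3 and 10.5 to 17.0 CPM at ZT13. What set the small RNA share was not tested.

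**Figure D5:**
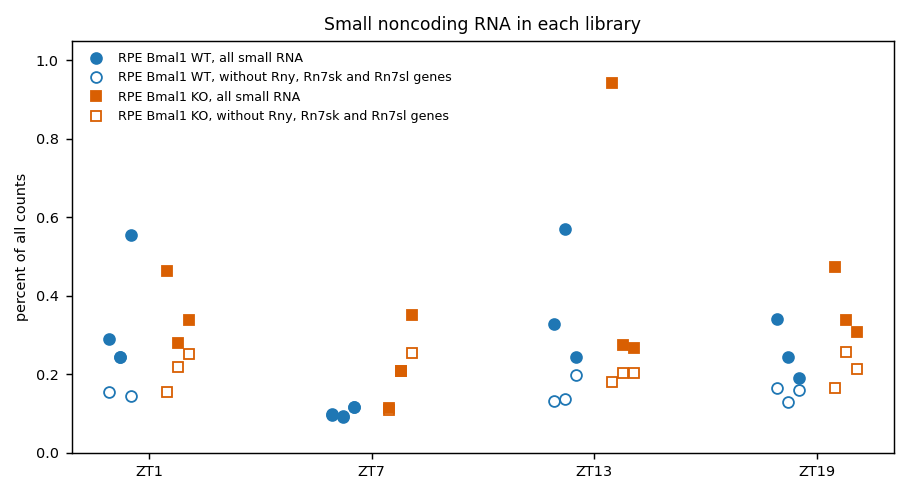
Share of all counts, in percent, that fell on small noncoding RNA genes in each of the 24 libraries by time point, filled for all such genes and open without the Rny, Rn7sk and Rn7sl genes. The filled points of the RPE Bmal1 WT libraries at ZT7 start at 0.0931% and lie under those of every library at ZT13, while the open points of ZT7 and ZT13 overlap.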

How the data were processed

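The deposited table held whole-number counts per gene, which the authors made by aligning reads of stranded, ribosomal RNA-depleted total RNA libraries to mm10 with Bowtie2 and counting with HTSeq (versions 2.3.4 and 0.9.1 in the submitters' processing notes); whether strand was used is not given in the sources used here. A further 11 columns of the table were not used. Names, types and positions came from GENCODE release M21 for 52147 identifiers, and 1553 had none. Autosomal genes that filterByExpr kept, by the 4 groups of the 12 libraries, were fitted with edgeR 4.0.16 in R 4.3.3, with TMM scaling and library sizes over all rows. The SE is the absolute log2 difference divided by the square root of the F statistic. DESeq2 1.42.0, limma 3.58.1, other scalings, filters, covariates, the replicate block and the omission of each library were alternatives. Summed marker levels and means over the day were scaled over 24 libraries. By rule, the text named the clock lists, the 5 genes with the smallest p in each direction when fewer than 5 were called, the 2 with the smallest p in each other list and the 3 with the smallest p for the difference between genotypes; other genes were chosen after their values were seen, and some genes that the rule named are not reported here. The members and gene lists were chosen with earlier results of these data known. The fit was tested on simulated data. Promoters came from RefSeq, build GRCm38.p6. Replicates differed by more than sampling noise, and at a depth of 2069527 counts 1 count equals less than 1 CPM, so genes near 1 CPM rest on few counts.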

Additional observations from a re-analysis of the deposited data

Results flagged for a closer look

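In groups of 6 libraries, 226 values were screened for a library far from the others on the log2 scale (Dixon's ratio at the 95% level), and 19 were flagged, where chance flags about 1 in 20 groups, or 11.3 here. Of the 19, 11 were RPE Bmal1 WT ZT7 replicate 1. In that library, Wee1 (27.1 CPM), Fkbp5 (32.2 CPM), Cryba1 (102 CPM), Cx3cr1 (41.5 CPM), S100b (274 CPM) and Mbp (18190 CPM) were above the other ZT7 libraries, as were the summed lens markers (3752 CPM) and the summed myelin and Schwann cell markers (20780 CPM). Tef (189 CPM), Per3 (130 CPM) and Gsta4 (80.5 CPM) were below them.

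In the RPE Bmal1 KO group, ZT7 replicate 3 had Glul at 825 CPM, above the others, and Gm47144 at 0.57 CPM, below them. ZT13 replicate 1 had Dct at 670 CPM and olfactory and vomeronasal receptor genes summed to 714 CPM, both above the other ZT13 libraries. At ZT7 the receptor sum was 2129 CPM in RPE Bmal1 WT replicate 1 and 770 CPM in RPE Bmal1 KO replicate 1. Without the libraries above 500 CPM of receptor genes, edgeR called 0 genes over both genotypes, with 799 at an unadjusted p under 0.05. In KO, ZT13 replicate 3 had Acly at 140 CPM above and Tspan4 at 14.6 CPM below the others. In RPE Bmal1 WT, ZT13 replicate 1 had summed lens markers of 7242 CPM and ZT13 replicate 3 had summed cornea and keratinised epithelium markers of 15920 CPM, both above the others.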

How the results depend on the processing

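The counts of genes past the adjusted threshold stayed at 0 in edgeR under the other scalings, robust fitting, covariates, other model terms and chromosomes, and in limma-trend, with these exceptions. DESeq2 called 16 genes over both genotypes and 4 in RPE Bmal1 WT; with every gene counted at least once kept, edgeR called 28 over both, 311 in WT, 8 in KO and 53 for the difference between genotypes. DESeq2 without RPE Bmal1 WT ZT7 replicate 1, chosen after seeing the data, called 17, of which 12 were among the 16. Leaving out each library in turn gave 0 to 44 calls over both genotypes, 0 to 10 in WT, 0 to 2 in KO and 0 for the difference; the highest counts all came without RPE Bmal1 KO ZT7 replicate 3. The cause was not tested. Over all alternatives no named gene with an unadjusted p under 0.05 changed direction. Of the gene values, 30 passed the adjusted threshold and the rest kept their side of it. Among the rest, 2888 stayed within 1 SE of the reported difference and 98 moved by more than that. Correlations of same-numbered libraries were -0.02, -0.21 and 0.08 in WT and 0.64, 0.28 and 0.43 in KO. The replicate numbers were therefore not taken to pair the libraries over both genotypes, although those in KO deviated together. Among differently numbered KO pairs, ZT7 replicate 3 and ZT13 replicate 2 had 0.38, and the others ran from -0.57 to -0.003. With the replicate block edgeR called 0 genes in each comparison, with 1023 at an unadjusted p under 0.05 over both genotypes and a smallest adjusted p of 0.092 in place of 0.322. Depth limits the low genes most, since the shallowest library held 2069527 counts.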

Other observations

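Gene classes that belong to none of the lists had medians of different sign. Of 1742 pseudogenes tested, 1135 had a negative difference and 607 a positive one, with a median of -0.14, where protein-coding genes had a median of 0.03. Of 84 ribosomal protein genes, 45 were positive. A further 3 genes had every dark library above every light library and were chosen after their values were seen. Acta2, smooth muscle actin, ran from 29.0 to 45.0 CPM in the light and from 45.9 to 75.5 CPM in the dark. Kpnb1, the nuclear import receptor importin beta, had 69.6 to 92.1 CPM and 93.4 to 122 CPM, and Selenos, a selenoprotein of the endoplasmic reticulum, had 4.24 to 9.44 CPM and 9.68 to 11.3 CPM. None of them was called by edgeR or DESeq2.

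Angptl7, a secreted protein of the sclera and trabecular meshwork, had medians of 21.8 CPM at ZT7 and 42.6 CPM at ZT13. The replication clamp gene Pcna, also chosen after its values were seen, ran from 4.83 to 9.25 CPM in the light and from 6.84 to 14.97 CPM in the dark, opposite in sign to Cenpf, Cdca8 and Mki67.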
